A study of Mus musculus with 576 samples.

Results

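The clustered histone genes are those whose GENCODE M21 symbol begins with Hist1h, Hist2h, Hist3h or Hist4h, and the symbol alone chose them. They numbered 70 of the 36658 genes in the count tables. Of these, 56 carry a Hist1 symbol on chromosome 13, 10 a Hist2 symbol on chromosome 3, 3 a Hist3 symbol on chromosome 11 and 1 a Hist4 symbol on chromosome 6. They comprise 6 linker histone (H1), 20 H2A, 19 H2B, 12 H3 and 13 H4 genes, of which 67 are annotated as protein-coding and 3 as pseudogenes.

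Single sorted cells of the E12.5 mouse dorsal pancreas were profiled by Smart-seq2, in which every well of a plate becomes a library of its own and no molecular identifier marks the starting transcripts. GFP+ cells came from 3 groups of embryos: Nkx2.5-Cre;mTmG (Nkx2.5 line), Nkx3.2-Cre;mTmG (Nkx3.2 line) and Prox1-GFP (Prox1 line), with 2 plates of 96 wells each. In the first pair, the Cre of a gene active in gut and pancreatic mesenchyme switches the mTmG reporter from tomato to GFP for good, so that descendants which no longer express the driver are GFP+ too. The Prox1-GFP embryos carry a bacterial artificial chromosome transgene that reports current Prox1 transcription and have neither Cre nor mTmG.

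After the study's filters 549 cells remained, 90 and 83 on the Nkx2.5 plates, 95 and 96 on the Nkx3.2 plates and 93 and 92 on the Prox1 plates, with a median of 901156 counts and a range from 224814 to 1512736. Mesenchymal markers (9 genes, Col1a1 among them) summed to at least 485 CPM (counts per 1000000 counts of a cell or group of cells) in every Nkx2.5 or Nkx3.2 cell. In the Prox1 line 59 and 48 cells of the 2 plates had more counts of 8 epithelial markers than of mesenchymal markers, and 34 and 44 had fewer. In the Nkx3.2 line 3 cells had more, and in the Nkx2.5 line 0. Since no label ties a cell to an embryo or litter, a line counts as 1 sample, and differences between lines were not tested. The plates of a line show only how far such values repeat. The Prox1 plates carry a separate range of library numbers, and library batch cannot be told apart from line.

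Histones package DNA into nucleosomes, and a cell must double its histone stock while it copies its genome. The clustered genes are the replication-dependent set: their transcripts accumulate in S phase, and most end in a short stem-loop bound by SLBP instead of a poly(A) tail. Smart-seq2 primes from poly(A), so that transcripts without a tail are poorly caught. The ends of the transcripts counted here were not measured. PCNA is the sliding clamp of DNA polymerase and its transcript is high from late G1 through S phase, and TOP2A is the topoisomerase that separates sister chromatids, whose transcript builds up from S phase to mitosis.

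The annotated 3′ ends set the members apart, and the stem-loop sequence shows how. The letters TTTTNAGNGCC, with N for any base, were searched on the transcript strand of every annotated transcript. They occurred in 42 of the 70 members, and in 0.914% of 58725 other protein-coding transcripts (0.0647% within 100 bases of the end). In 21 members the match lay within 100 bases of an annotated end, and in 21 others the annotated transcript ran on beyond it. Of the 28 without a match, 15 have models that stop at the stop codon, so that their 3′ ends are not annotated. The sites below are shown for members that the results turn on, with the match in capitals, in GRCm38 coordinates and on the transcript strand.
Hist1h2ap: aaaggctcTTTTCAGAGCCatc
Hist1h2ao: aaaggctcTTTTCAGAGCCatccacag
Hist1h2ae: aaaggctcTTTTCAGAGCCattcactt
Hist2h3c2: aaaggctcTTTTCAGAGCCaccacagc
Hist1h4d: aaaggcccTTTTCAGGGCCactacctt
Hist1h1c: aaaggctcTTTTCAGAGCCaccactcc
Hist3h2a: aaaggctcTTTTCAGAGCCacccacaa
Hist3h2ba: aaaggctcTTTTCAGAGCCaccttcca

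The Hist1h2ap site (chr13:21833026-21833047, minus strand) is the last stretch of its transcript, with 3 bases after the match. In Hist1h2ao (chr13:21810895-21810921, plus strand) 31 bases follow. The models of the other 6 run on, in Hist1h2ae (chr13:23570660-23570686, minus strand), by 377 bases in Hist2h3c2 (chr3:96238477-96238503, minus strand) and 770 in Hist1h4d (chr13:23581947-23581973, plus strand). They continue by 840 bases in Hist1h1c (chr13:23739509-23739535, plus strand), by 1643 in Hist3h2a (chr11:58955169-58955195, plus strand), and less far in Hist3h2ba (chr11:58949346-58949372, plus strand). A poly(A) signal (AATAAA or ATTAAA) stood in the last 60 bases of 2 of the 21 models that end near the stem-loop and of 10 of the 21 that run on, Hist1h2ae, Hist1h1c, Hist3h2a and Hist3h2ba among them.

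Every member had at least 1 estimated count in at least 1 cell, but most were found in few cells. A member was taken as detected in a cell with 1 count or more. By this measure 52 of 70 were detected in at least 5% of cells, 37 in at least 10% (52.9%, beside 56.8% of 21811 protein-coding genes), 9 in at least 30% and 2 in over 50%. Of the 37, 4 were H1, 11 H2A, 10 H2B, 6 H3 and 6 H4 genes. By gene model they were 10 of the 21 that end near the stem-loop, 16 of the 21 that run on and 11 of the 28 without a match. A cell held a median of 8 detected members and at most 37, and 8 cells held none. The median was 5 in the Nkx2.5, 9 in the Nkx3.2 and 11 in the Prox1 line, and 3, 7 and 8 after each cell was thinned to 100000 counts.

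Hist1h2ap, an H2A gene, was found in 76.7% of cells (exact 95% binomial interval 72.9 to 80.2%), and Hist3h2a, the H2A gene of the Hist3 cluster, in 57.7%. The interval treats cells as independent draws and does not cover differences between lines or embryos. Next were Hist1h2ae (45.4%), Hist1h4d (44.4%), Hist1h2ag (44.3%), Hist1h4i (37.5%), Hist1h2bc (33.3%), Hist3h2ba (32.2%) and Hist2h3b (30.6%). A further 4, Hist1h2bq, Hist1h2ai, Hist1h2bk and Hist1h2br, lay between 22.2 and 24.6%. Another 24 lay between 10.02 and 19.1%, from Hist1h3i through Hist1h4h, Hist1h2bg, Hist2h2aa2, Hist1h2be, Hist1h4k, Hist1h3h, Hist2h2aa1, Hist1h2ac, Hist1h3e, Hist1h1b, Hist1h2bj, Hist1h2ab, Hist1h2af, Hist2h2be, Hist1h2ao, Hist1h1d, Hist1h4c, Hist4h4, Hist1h1c, Hist1h1e, Hist1h3c and Hist2h3c2 up to Hist1h2bh. The 5 found in under 1% of cells were Hist1h1t and Hist1h2ba, the H1 and H2B genes of the testis, with Hist2h3c1, Hist1h4f and Hist2h2ab.

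Many members share sequence with each other or with other genes, which bears on their single values. Of the member values above 0, 82.4% were not whole numbers, beside 36.2% of all values, since reads that fit several genes were divided among them. Hist1h2ap shares 93.4% of its 31-base words with Hist1h2ao, and Hist2h3b has none that is its own, with 80.6% in Hist2h3c2. Hist2h2aa2 likewise has none of its own, and 98.3% of those of Hist1h2bq are in Hist1h2br. The split between such genes is uncertain. By contrast, 97.2% of the words of Hist2h2be, 96.1% of those of Hist1h1b and 62.8% of those of Hist3h2ba are in no other gene, and their values were not whole in 0, 1.30 and 5.08% of cells with any. Hist3h2a shares exon sequence with Trim17 on the same strand, where reads cannot be told apart. Hist1h2ap overlaps the opposite-strand entry Gm44466, from which unstranded reads do not separate it.

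Per kb of exon, the scale on which genes can be compared with each other, Hist1h2ap stood at 1032 CPM per kb, 24.1-fold above the next gene. It made up 70.9% of the level per kb summed over all 70. Next came Hist1h2ag (42.7), Hist1h2bc (41.7), Hist1h2ae (31.1), Hist1h4i (27.01), Hist3h2ba (25.8), Hist2h3b (25.1), Hist3h2a (23.7), Hist1h2ai (18.3), Hist1h4d (15.98), Hist1h2bk (14.4) and Hist1h1c (13.1 CPM per kb). Over the 6 plates the ranges of each pair of neighbours below Hist1h2ap overlap. At the other end, 19 members stayed under 1 CPM in every line.

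**Figure D1:**
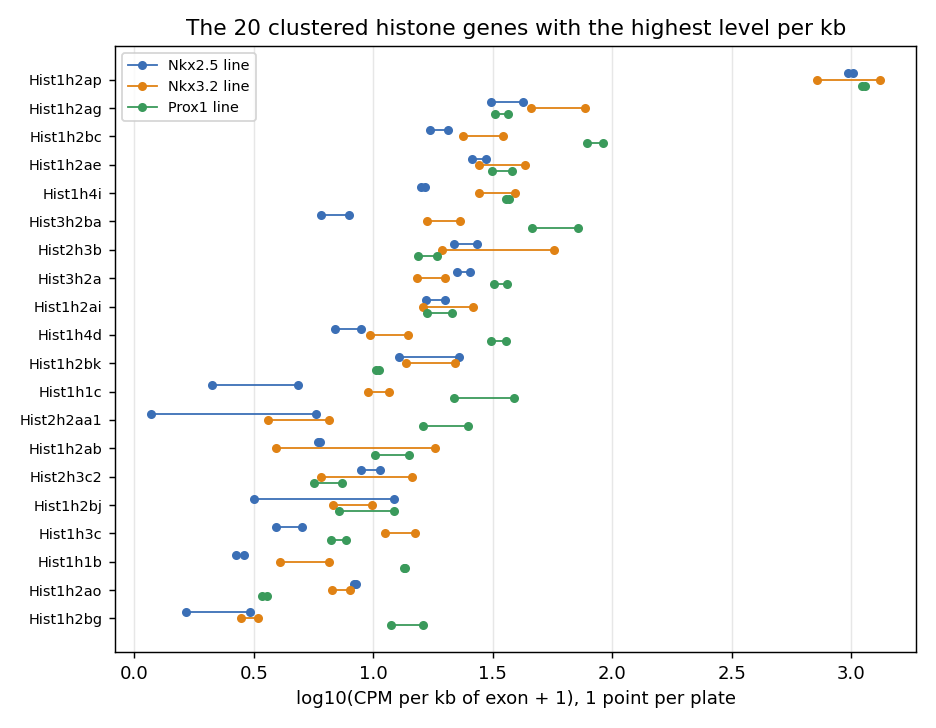
Level per kb of exon of the 20 highest members, as log10(CPM per kb + 1), with 1 point per plate, a line joining the 2 plates of a mouse line, and colour for the mouse line. Hist1h2ap lies apart from the rest on all 6 plates, and Hist1h2bc, Hist3h2ba, Hist1h4d and Hist1h1c lie to the right on both Prox1 plates.

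All members together took 0.0845% of the counts. The H2A genes held 73.5% of member counts (those other than Hist1h2ap 14.6%), the H2B genes 12.03%, the H4 genes 6.07%, the H3 genes 4.67% and the H1 genes 3.77%. Hist1h2ap was at 480, 474 and 544 CPM for Nkx2.5, Nkx3.2 and Prox1. The counts assigned to Hist1h2ao brought the pair to 483, 477 and 546 CPM, and how many of the reads assigned to Hist1h2ap came from Hist1h2ao is not known.

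Hist1h2ap was carried by few cells. In 79 of 549 cells (14.4%, interval 11.6 to 17.6%) it was at 1000 CPM or more, a mark chosen after the values were seen, and these cells held 89.5% of its counts and 66.4% of the counts of all members. They numbered 26 of the Nkx2.5 cells (15.03%), 21 of the Nkx3.2 cells (10.995%) and 32 of the Prox1 cells (17.3%). Their median depth of 948140 counts was near the 897270 of the other 470 cells.

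Nearly every cell with this much Hist1h2ap also had Top2a, while the reverse did not hold. Top2a was at 100 CPM or more in 77 of the 79 cells (97.5%) and in 87 of the other 470 (18.5%), and none of the 79 was without a count of it. Pcna was at 100 CPM or more in 70 of the 79 (88.6%) and in 61.7% of the other cells. The median Hist1h2ap of cells below 1 CPM of Top2a was 4.14, 37.3 and 34.5 CPM for Nkx2.5, Nkx3.2 and Prox1, with a highest cell of 138.8, 220 and 248 CPM. At 500 CPM of Top2a or more the medians were 2269 (32 cells), 3479 (21 cells) and 1628 CPM (45 cells), with 25, 17 and 25 cells at 1000 CPM or more. The remaining Top2a-rich cells reached down to 29.8, 46.03 and 0.17 CPM.

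**Figure D2:**
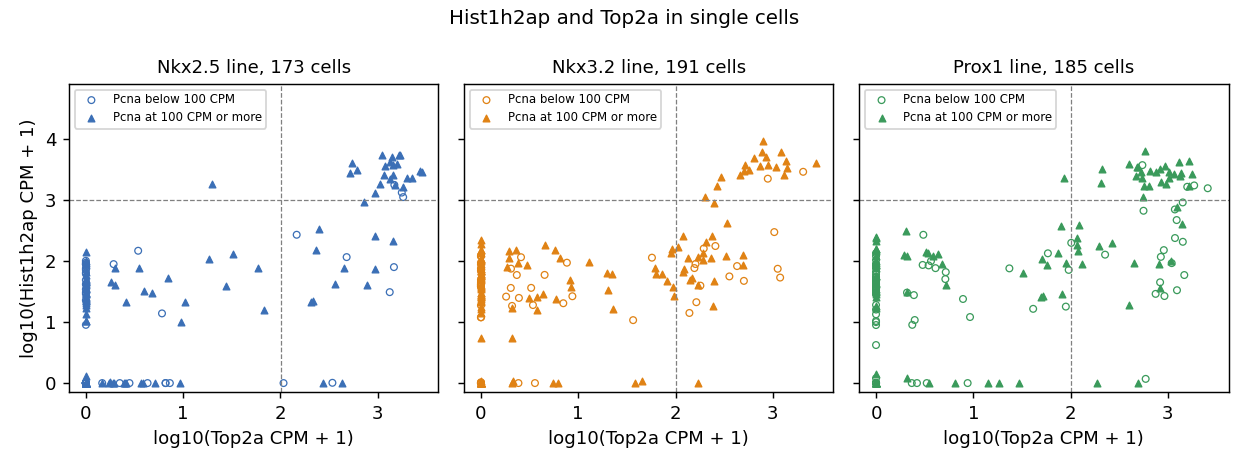
Hist1h2ap against Top2a in single cells of the 3 lines, both as log10(CPM + 1). Filled triangles are cells with Pcna at 100 CPM or more, open circles the others, and the dashed lines mark 1000 CPM of Hist1h2ap and 100 CPM of Top2a. In each line mostly filled points gather at the upper right. Below them Top2a-rich cells of both Cre lines thin out, and those of the Prox1 line run on without a break.

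The summed level of all members followed Top2a over the cells of every line and Pcna much less. The Spearman correlation with Top2a was 0.52 over the Nkx2.5 cells, 0.51 over the Nkx3.2 cells and 0.49 over the Prox1 cells, and on single plates it ran from 0.48 to 0.56. With Pcna it was 0.02, 0.02 and 0.16, and from -0.04 to 0.22 on single plates. Both values of a cell come from the same library, and the sum was also related to the number of genes detected (Spearman correlation 0.23, 0.20 and 0.39). After ranks were regressed on detected genes and depth, the Spearman correlation with Top2a was 0.47, 0.50 and 0.41. Hist1h2ap alone gave 0.55, 0.52 and 0.58 with Top2a and 0.17, 0.22 and 0.36 with Pcna, and the 69 other members summed gave 0.44, 0.44 and 0.31 with Top2a and -0.04, -0.10 and 0.02 with Pcna. Top2a and Pcna themselves had a Spearman correlation of 0.17, 0.15 and 0.22.

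When the cells of each line were divided at its median of both genes, the pooled histone level was highest in cells above both medians. The Top2a medians were 0, 1.43 and 2.84 CPM for Nkx2.5, Nkx3.2 and Prox1, so a cell above them may hold only a trace of Top2a, and the Pcna medians were 178.5, 204 and 142.2 CPM. Cells above both medians had a summed level of 1498, 1658 and 2134 CPM for Nkx2.5, Nkx3.2 and Prox1. Cells above the median of Top2a alone had 1077, 809 and 833 CPM, cells above that of Pcna alone 135.3, 199 and 334 CPM, and cells above neither 219, 321 and 610 CPM. The median cell did not follow this order in every line. It was at 363, 386 and 1725 CPM above both medians and at 361, 415 and 499 CPM above that of Top2a alone. Hist1h2ap made most of the pooled difference, with 1209, 1258 and 1427 CPM in cells above both and 19.2, 46.4 and 72.4 CPM in cells above that of Pcna alone. Among the 37 members found in at least 10% of cells, 9 were highest in cells above both medians in all 3 lines: Hist1h2ap, Hist1h2ao, Hist1h2ae, Hist1h2af, Hist1h2ai, Hist1h2bk, Hist1h1b, Hist2h3b and Hist2h3c2. Of all genes found in at least 10% of cells 3.37% were so. Without the cell with most counts in each line, 8 of the 9 remained, all but Hist1h2ao. Hist1h2ag and Hist1h2bh were highest in cells above the Top2a median alone in all 3 lines (2.84% of all genes), Hist1h2bh not without its highest cells, and none of the 37 was so in either class at or below the Top2a median.

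**Figure D3:**
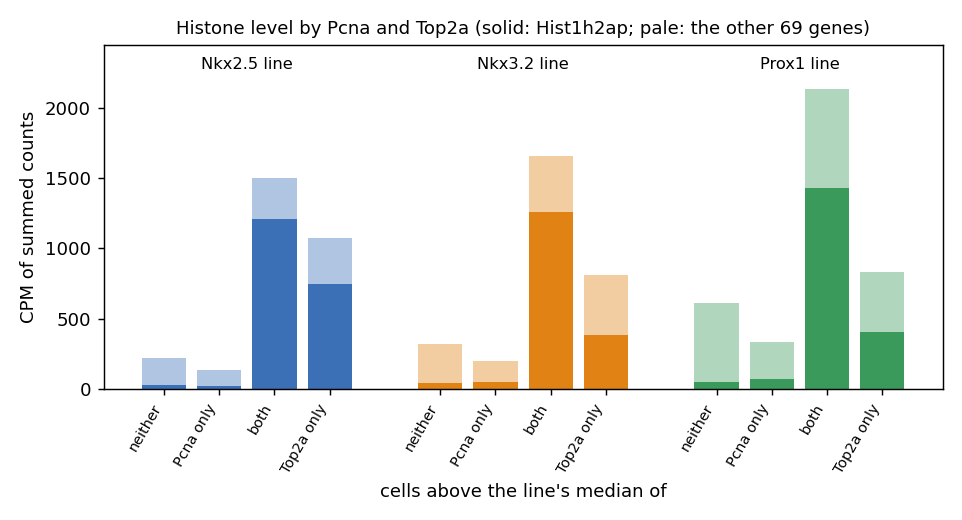
Summed level of all 70 members, as CPM of counts pooled over the cells of a class, by whether cells lay above their line's median of Pcna, of Top2a, of both or of neither. The solid part of a bar is Hist1h2ap and the pale part the other 69 genes. The bar for both is the tallest in each line, at 1498, 1658 and 2134 CPM, and that for Pcna alone the lowest.

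Member by member, cells above a line's median of Top2a were set against the other cells of the line, and a gene was called when its pooled level differed at least 2-fold the same way in all 3 lines. Of 35 members that reached 1 CPM in every line, 9 were called higher and 0 lower, while of all 12637 genes so tested 1.67% were called higher and 0.388% lower. The median ratio was 2.36 over these 35 and 0.97 over all genes, with a level below that of 3 counts, 0 included, raised to it.

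The 9 were of every histone class, and Hist1h2ap differed most in level. In cells above and below the Top2a median it was at 1010 and 22.3 CPM for Nkx2.5, 882 and 44.9 CPM for Nkx3.2, and 1031 and 57.97 CPM for Prox1. Hist2h3c2, an H3 gene, was at 18.6 and 0.5 CPM, 17.4 and 0.1 CPM, and 10.98 and 0.4 CPM in the same order. It was found in 29, 30 and 40 cells above and in 3, 1 and 1 cells below. Hist2h3b, whose reads are largely shared with it, was at 22.5 and 1.9, 30.8 and 2.4, and 14.9 and 0.8 CPM. These are pooled levels, and the cells overlapped, since most cells above the Top2a median had no count of Hist2h3c2.

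Hist1h1b, the linker histone H1.5 and a gene whose reads are nearly all its own, was found in 13, 26 and 34 cells above the Top2a median and in 0, 0 and 4 cells below. Its pooled level above was 2.84, 5.99 and 17.1 CPM, at least 89.7-fold higher in the Nkx2.5 line against a floor of 3 counts over the cells below, and 11.99-fold higher in the Prox1 line. Hist1h1e, the linker histone H1.4, was at least 98.7-fold higher in the Nkx2.5 line on the same floor, and 4.47-fold and 3.98-fold higher in the others. Hist1h2ae was 5.603-fold, 3.38-fold and 9.63-fold higher, and Hist1h2ab, another H2A gene, 4.00-fold, 5.66-fold and 12.4-fold. For the H4 gene Hist1h4d the ratios were 4.01, 2.57 and 4.34. The H2B gene Hist1h2bm was at least 136.7-fold higher for Nkx2.5 on that floor, 12.3-fold for Nkx3.2 and 2.19-fold for Prox1, with 9, 14 and 11 cells above.

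Over the cells, 18 members were found in at least 10% of the cells of every line, which allowed a Spearman correlation for each. Their median Spearman correlation with Top2a was 0.26 and that of 11843 other genes so detected 0.02, and 11 of the 18 lay above the value of 0.17 that 5% of the other genes exceed. Hist2h3c2 led with 0.63, 0.58 and 0.61 for Nkx2.5, Nkx3.2 and Prox1. Hist1h2ap followed, then Hist2h3b (0.58, 0.48 and 0.54), Hist1h2ae (0.54, 0.39 and 0.58) and Hist1h2af (0.52, 0.44 and 0.33). Hist1h2ap and Hist2h3c2, on different chromosomes, had a Spearman correlation of 0.64, 0.56 and 0.68 with each other.

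Some well-detected members did not follow Top2a. The lowest values were those of Hist4h4 (-0.07, 0.01 and -0.08), Hist3h2a (0.06, -0.04 and -0.03), Hist1h2bh (-0.02, -0.06 and 0.05), Hist1h2bc (-0.01, 0.01 and 0.05) and Hist1h1d (0.07, 0.13 and 0.10). Hist3h2a, the second most often found member, was at 70.7, 47.99 and 99.4 CPM in cells above neither median and at 35.5, 21.5 and 67.9 CPM in cells above both. Above the Top2a median alone it was at 43.97, 50.7 and 54.5 CPM, its highest class in the Nkx3.2 line. Hist1h2bc, an H2B gene, was at 28.7, 66.99 and 157.1 CPM in cells above neither. In cells above both it was at 13.8, 12.04 and 87.7 CPM. Between these classes the order was opposite to that of Hist1h2ap in each line. Above the Top2a median alone Hist1h2bc was at 36.6, 50.6 and 60.3 CPM. Above the Pcna median alone it was at 5.44, 7.997 and 52.7 CPM, its lowest class in each line. The models of Hist4h4, Hist3h2a, Hist1h2bh and Hist1h1d run on for 2445, 1643, 1214 and 4884 bases beyond the stem-loop, and that of Hist1h2bc holds no match.

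Grouped by gene model, the 3 members that end near the stem-loop had a median Spearman correlation with Top2a of 0.38 (Hist1h2ap, Hist1h2ag and Hist1h2bk), the 10 that run on 0.21, with a range from -0.07 to 0.61, and the 5 without a match 0.21. The groups overlap, since Hist2h3c2 and Hist1h2ae run on and were among the highest.

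With Pcna, the median Spearman correlation of the 18 was 0.05, beside 0.02 over the other genes. Of the 18, 5 lay above the value of 0.17 that 5% of the other genes exceed. The highest were Hist1h4d (0.26, 0.30 and 0.30), Hist2h3c2 (0.21, 0.28 and 0.33), Hist2h3b (0.19, 0.26 and 0.34), Hist1h2ap (0.17, 0.22 and 0.36) and Hist1h2ai (0.00, 0.20 and 0.24). The lowest were Hist1h2bc (-0.21, -0.27 and -0.19), Hist3h2a (-0.09, -0.23 and -0.13), Hist4h4 (-0.03, 0.00 and -0.09), Hist1h2bq (-0.10, -0.02 and 0.16) and Hist1h2ag (-0.04, 0.00 and 0.16). Divided at the Pcna median, 2 of 35 members were called higher, Hist1h2ap (2.12-fold, 3.58-fold and 4.86-fold) and its near-copy Hist1h2ao (2.07-fold, 2.35-fold and 2.81-fold), which may hold the same reads. None was called lower. Of all genes 0.609% were called higher and 0.388% lower.

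**Figure D4:**
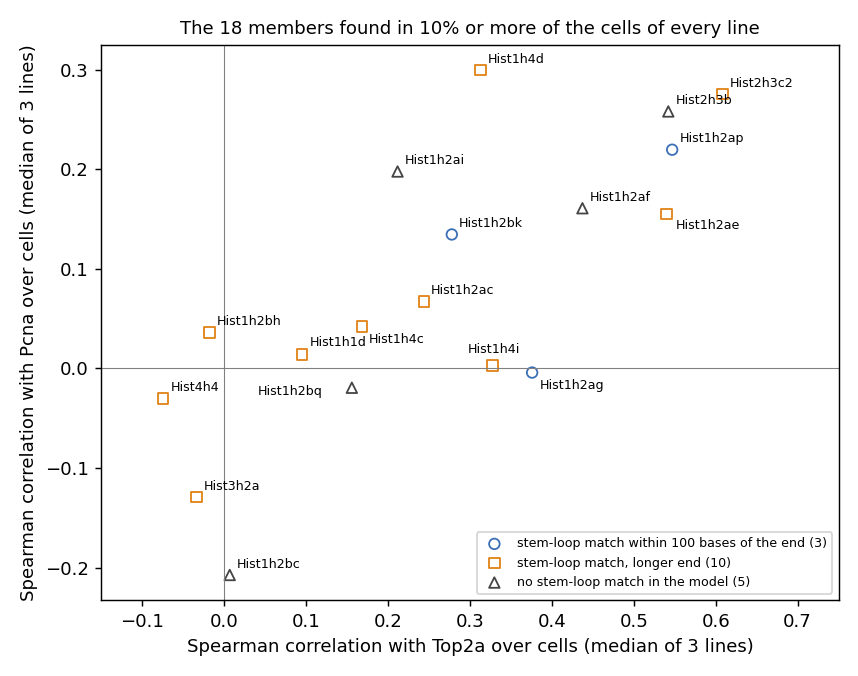
Spearman correlation over cells with Top2a (x axis) and with Pcna (y axis), each the median of the 3 lines, for the 18 members found in at least 10% of the cells of every line. Marker shape gives the 3′ end of the gene model. Hist2h3c2, Hist2h3b, Hist1h2ap and Hist1h2ae lie at the right, and Hist4h4, Hist3h2a and Hist1h2bc at or left of 0 with negative values for Pcna.

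Within the cells at 100 CPM of Top2a or more, those at 1000 CPM or more of Hist1h2ap (25, 21 and 31 cells for Nkx2.5, Nkx3.2 and Prox1) were set beside the rest (19, 35 and 33 cells), a division made after the values were seen. The S-phase list of 22 genes had 8 that were higher, at any fold, in the Hist1h2ap-rich cells in all 3 lines and 0 that were lower in all 3, beside 12.9% and 15.7% of all genes. They included Lig1, the ligase that joins Okazaki fragments (339 and 145.3, 367 and 130.02, 342 and 135.7 CPM), and Prim1, a primase subunit. In the list of 15 G2 and M genes 5 were higher in all 3 lines (Top2a, Mki67, Cdk1, Aurkb and Nusap1) and 3 lower (Ccnb2, Cenpf and Tpx2). Top2a also chose the cells compared, so its own place in this list and in the list's median ratio adds nothing. The median ratio was 1.57 over the S-phase and 1.43 over the G2 and M list. The mitotic cyclin Ccnb2 was at 425 and 718, 194 and 408, and 324 and 551 CPM. Hist1h2bc was at 5.99 and 44.6 CPM for Nkx2.5, 0.15 and 46.2 CPM for Nkx3.2, and 71.2 and 60.6 CPM for Prox1. A single cell held 71.3% of the 71.2 CPM, and without it the level was 20.99 CPM. For Nkx2.5, 1 cell held 57.7% of the 5.99 CPM, and without their highest cell the cells below 1000 CPM of Hist1h2ap were at 23.3 instead of 44.6 CPM.

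Other genes of histone supply were read by the same 2-fold rule. Of 11 replacement variants and linker histones outside the clusters 2 were called higher in cells above the Top2a median: H2afx, the variant phosphorylated at DNA breaks, and Cenpa, the centromeric H3. H2afz, a replacement H2A, was found in 100% of cells and had a median Spearman correlation of 0.54 with Top2a. Of 14 factors of histone transcription and 3′ end formation, 0 were called with Top2a. Slbp, which binds the stem-loop, was called with neither gene. Its Spearman correlation was 0.29, 0.59 and 0.53 with Pcna and 0.18, 0.25 and 0.16 with Top2a. Zfp473, which acts in 3′ end processing, was the 1 called higher with Pcna in pooled level. Over cells, though, its Spearman correlations with Pcna were 0.035, 0.077 and -0.043. Of 9 histone chaperones, Asf1b alone was called higher with Top2a, and 0 with Pcna. Their median Spearman correlation, though, was 0.34 with Pcna and 0.15 with Top2a. Among G2 and M genes 14 of 14 tested were called with Top2a and 0 of 15 with Pcna, and among S-phase genes 3 of 22 and 10 of 21.

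By line, all members summed to 708 CPM for Nkx2.5 (exact 95% Poisson interval 704 to 712), to 791 CPM for Nkx3.2 (787 to 796) and to 1067 CPM for Prox1 (1062 to 1072). The intervals cover counting of reads only. The plates were at 725 and 690, 619 and 1012, and 1059 and 1074 CPM, so the Nkx3.2 plates spanned the Nkx2.5 values and the Prox1 plates lay above all others. Per cell the median was 180, 281 and 435 CPM, with a highest cell of 6197, 10678 and 11021 CPM. The last of these cells, on the Prox1 plate at 1074 CPM, held 3475 CPM of Hist1h1c and 1928 CPM of Hist1h2bc. Without it the Prox1 line was at 1021 CPM, near the 1012 CPM of the higher Nkx3.2 plate. The plate at 1074 CPM was not recomputed without this cell, but the other Prox1 plate, at 1059 CPM, does not hold it. With 93 and 92 cells of similar depth, a line at 1021 CPM puts the plate of this cell below 1012 CPM. So the Prox1 plates lay above all others only with this cell included.

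Hist1h2ap did not set the Prox1 line apart. It was at 492 and 466 CPM on the Nkx2.5 plates, 347 and 637 on the Nkx3.2 plates and 537 and 551 on the Prox1 plates, and the Nkx3.2 plates enclosed all others. The other members summed to 229, 317 and 523 CPM, 2.29-fold higher in the Prox1 than in the Nkx2.5 line. Against the Nkx3.2 line they were 1.65-fold higher. By family, the ratio of the Prox1 to the Nkx2.5 line was 9.48 in H1, 3.51 in H2B, 2.72 in H4, 1.20 in H2A and 0.96 in H3 genes. To the Nkx3.2 line it was 3.16 in H1, 2.20 in H2B, 1.69 in H4, 1.19 in H2A and 0.65 in H3 genes. The Prox1 cell with 3475 CPM of Hist1h1c, an H1 gene, and 1928 CPM of Hist1h2bc, an H2B gene, is in these sums. The ratios of this paragraph were not recomputed without it.

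A member was called between lines when pooled levels differed at least 2-fold and the plates did not overlap, among genes at 1 CPM or more in either line. In the Prox1 line 18 of 49 were higher and 2 lower than in the Nkx2.5 line, where 17.2% and 7.69% of all genes were so called. Against the Nkx3.2 line 14 of 50 were higher and 3 lower, beside 15.7% and 9.26% of all genes. Between the Nkx3.2 and Nkx2.5 lines 12 of 44 were higher and 2 lower, beside 9.91% and 5.58%, but only 6 of these 12 and 0 of the 2 held without the single cell with most counts of the gene. Each line enters 2 of these comparisons, so the counts are not independent of each other.

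There were 13 members higher in the Prox1 line than in both others, and all of them held without their highest cell. Hist1h2bc was at 104.7 and 89.7 CPM on the Prox1 plates, 22.7 and 18.9 on the Nkx2.5 plates and 39.4 and 26.3 on the Nkx3.2 plates. Hist1h1c, the linker histone H1.2, was at 32.6 and 58.9 CPM, against 6.02 and 1.72, and 13.3 and 16.6 CPM. It was found in 28.1% of Prox1, 4.05% of Nkx2.5 and 21.5% of Nkx3.2 cells. A single cell held 34.7% of its counts in the Prox1 line, and without that cell the ratio to the Nkx2.5 line was 7.7 instead of 11.8. Hist3h2ba, an H2B gene whose values are nearly all whole, was at 43.7 and 27.8 CPM on the Prox1 plates, 3.1 and 4.3 on the Nkx2.5 plates and 9.7 and 13.5 on the Nkx3.2 plates. Hist1h4d was at 34.4 and 39.8 CPM, against 9.0 and 6.7, and 9.9 and 14.8 CPM.

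The other 9 were lower in level. Hist1h1e, Hist1h1b and Hist1h1d, all linker histones, were 7.99-fold, 7.06-fold and 5.99-fold above the Nkx2.5 line. Above the Nkx3.2 line they were 3.37-fold, 3.02-fold and 3.72-fold. The H2A genes Hist2h2aa1, Hist2h2aa2, Hist2h2ac and Hist1h2ac were 7.73-fold, 11.8-fold, 11.999-fold and 3.03-fold above the Nkx2.5 line. Above the Nkx3.2 line they were 4.67-fold, 5.22-fold, 6.74-fold and 2.97-fold. For the H2B gene Hist1h2bg the folds were 9.43 and 6.41, and for the H4 gene Hist1h4h 4.15 and 2.45, in the same order. Called only against the Nkx2.5 line were Hist1h4i, Hist1h2ab, Hist1h4j, Hist2h2be and Hist1h2bq, and only against the Nkx3.2 line Hist3h2a (2.02-fold), whose call was lost without its highest cell, as was that of Hist1h4j. Lower in the Prox1 line were Hist1h2ao against both others (1.20 CPM, beside 3.56 and 3.01), Hist1h2bb against the Nkx2.5 line, and Hist1h4b and Hist2h3b against the Nkx3.2 line, the last not without its highest cell.

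Higher in the Nkx3.2 than in the Nkx2.5 line, also without the highest cell, were Hist1h1c (3.73-fold), Hist3h2ba (3.11-fold), Hist1h1b (2.34-fold), Hist2h2be (4.88-fold), Hist1h2bq (4.03-fold) and Hist1h3c (3.57-fold). The calls of Hist1h4i, Hist1h4b, Hist1h3e, Hist1h4n, Hist1h2aj and Hist1h3h, and the lower ones of Hist1h2bb and Hist1h3f, were lost without that cell. Other values moved with this comparison. The 4 mesothelial markers summed to 44.3 CPM for Nkx2.5 (29.5 and 60.3 CPM on its plates) and 134.4 CPM for Nkx3.2 (37.3 and 258 CPM). This rise lay on 1 Nkx3.2 plate only. The 6 blood markers summed to 0.64 and 42.9 CPM, and the median cell had 5750 and 7235 genes. Their part in the differences was not tested.

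Epithelial marker counts went with the Prox1 difference. The 8 markers summed to 2644 CPM in the Prox1 line, where all 8 were found in at least 10% of cells, to 19.96 CPM for Nkx2.5 and to 89.2 CPM for Nkx3.2, with 2 of the 8 at 0 in each of these. Whether they account for any of the difference was not tested. Within the Prox1 line the cells with more epithelial marker counts had a summed histone level of 1212 CPM (1068 and 1364 CPM on the 2 plates), and those with more mesenchymal marker counts 848 CPM (1043 and 712 CPM), so that the plates did not overlap but lay as near as 1068 and 1043 CPM. The mesenchymal values of the Prox1 plates overlapped those of both other lines. These were 725 and 690 CPM for Nkx2.5, and 624 and 1028 CPM for Nkx3.2 without its epithelial cells. No cell of the Prox1 line lay within a factor of 2 of equal sums. By the plate rule 16 of 54 members were higher and 5 lower in the Prox1 cells with more epithelial marker counts, beside 19.2% and 12.7% of all genes. Without the highest epithelial cell of each gene, the higher calls of Hist1h2be, Hist1h4j, Hist1h2bp and Hist3h2a were lost. Hist1h2bj, Hist1h2ai, Hist1h3f and Hist1h3i were then called lower as well. The shares of all genes were not computed without that cell.

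Of the 13 members above, 9 were higher in the Prox1 cells with more epithelial marker counts, also without the highest cell. Since these cells are most of the line in which the 13 were chosen, this is a description. Of all 1769 genes chosen by the same rule 84.7% were higher in these cells. Hist1h2bc was at 133.5 and 130.8 CPM in these, and at 50.1 and 38.5 CPM in the mesenchymal cells of the same plates. Hist2h2aa1 was at 12.6 and 23.9 CPM against 1.98 and 1.67 CPM, Hist1h2bg at 13.8 and 11.4 CPM against 0.93 and 0.92 CPM, and Hist3h2ba at 57.6 and 40.4 CPM against 17.3 and 12.1 CPM. The other 5 were Hist1h1c, Hist1h2ac, Hist2h2ac, Hist2h2aa2 and Hist1h4h. Hist1h1b, Hist1h4d, Hist1h1e and Hist1h1d were not called between these cells. Hist1h1b stood at 8.85 and 11.1 CPM in the first and 10.015 and 7.11 CPM in the second, and both were above every plate of the other lines. So were the mesenchymal-marker cells of both Prox1 plates for Hist1h4d, Hist1h1e and Hist2h2ac. Hist1h2ag, lower with epithelial markers, was at 12.6 and 8.87 CPM against 20.3 and 27.9 CPM. Hist1h2ap was at 478 and 676 CPM against 650 and 394 CPM, so that the plates gave opposite orders.

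**Figure D5:**
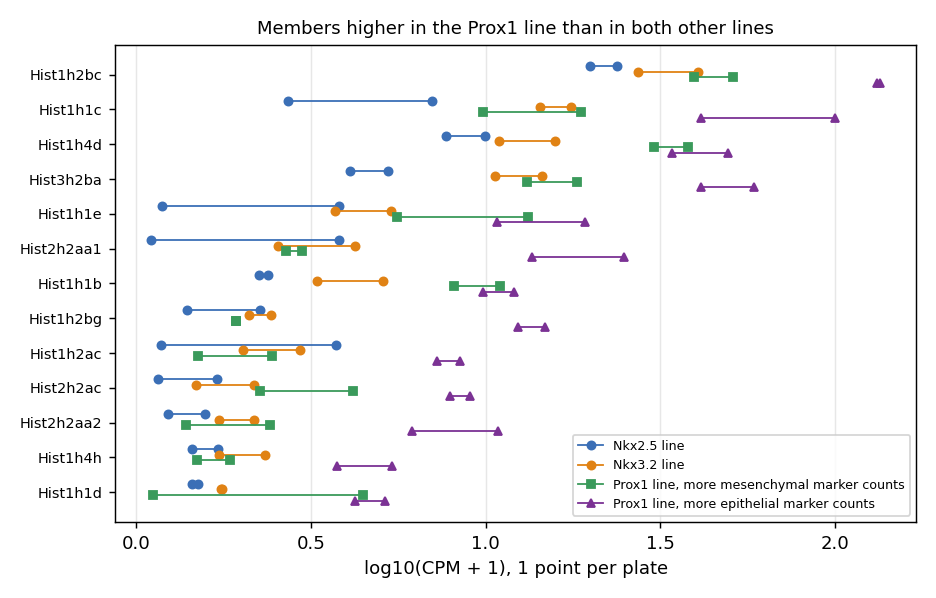
Level of the 13 members that were higher in the Prox1 line than in both other lines, as log10(CPM + 1), with 1 point per plate and a line joining the 2 plates. The Prox1 line is divided into cells with more mesenchymal and cells with more epithelial marker counts, and 3 Nkx3.2 cells of the latter kind are left out. For Hist2h2aa1 and Hist1h2bg only the second lie to the right, and for Hist1h1b and Hist1h4d both do.

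Cells at 1000 CPM of Hist1h2ap were found in both kinds of Prox1 cell, 19 cells (17.8%) of the epithelial and 13 (16.7%) of the mesenchymal kind, beside 15.03% in the Nkx2.5 and 10.995% in the Nkx3.2 line. The Spearman correlation of the summed level with Top2a was 0.46 over the former and 0.54 over the latter Prox1 cells, and with Pcna 0.29 and 0.07.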

How the data were processed

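Single-cell Smart-seq2 libraries of GFP+ cells from 3 lines on 6 plates were read as the authors deposited them: an estimated count for every gene in every cell, made per the study's notes with Trim Galore 0.6.5 and kallisto on GRCm38 and summed to genes, without normalization. Estimates divide reads among near-identical genes and need not be whole. Names, exons and transcript sequences came from GENCODE M21 (the annotation release the authors used is not given in the sources used here), and all 70 members were in the tables. As in the study's methods, a cell was kept if it reached 1000 genes and 100000 counts with no more than 30% of them mitochondrial, which left 549. The symbol rule that defines the members, and the lists, were chosen with earlier results of these data known. Levels are CPM of summed counts with exact 95% Poisson intervals, which cover the counting of reads only, and reads are not molecules. Shares have exact 95% binomial intervals, which treat cells as independent draws. They do not cover the spread between embryos, plates or lines. Named members were those found in at least 10% of cells, the 12 highest per kb, those called 2-fold, and the 5 highest and lowest Spearman correlations with Top2a and Pcna. A level below that of 3 counts, 0 included, was set to 3 counts in ratios. Lists of cell-type and cell-cycle genes were fixed by name. Alternatives were other cell filters, thinning to 100000 counts, leaving out plates, cells or Hist1h2ap, and other scalings. The code was tested on simulated data. No doublet caller was run, and no 2 cells held identical values. NumPy, SciPy and pandas in Python were used.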

Additional observations from a re-analysis of the deposited data

How the results depend on the processing

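No paired analysis was possible because the plates carry no pairing across lines and no test was run. Over all alternatives 59 values moved by more than the spread between plates (counts by over 1.5 times), and no called direction turned. Without Hist1h2ap the summed level was 229 CPM for Nkx2.5, 317 CPM for Nkx3.2 and 523 CPM for Prox1, and the Prox1 to Nkx2.5 ratio 2.29. Without mitochondrial counts the Nkx2.5 and Prox1 levels were 741 and 1103 CPM. The Prox1 level was 1080 CPM as a mean over cells, 848 CPM without epithelial cells (ratio to Nkx2.5 1.20) and 1021 CPM without its highest cell (ratio 1.44, chosen after seeing the data). Without epithelial cells in either line the ratio of Prox1 to Nkx3.2 was 1.06 instead of 1.35.

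The Spearman correlation with Top2a was, in the order Nkx2.5, Nkx3.2 and Prox1, 0.44, 0.44 and 0.31 without Hist1h2ap, and as Pearson's r of log2(CPM + 1) it was 0.60, 0.60 and 0.51. It was 0.58, 0.53 and 0.49 after thinning, and 0.77, 0.67 and 0.47 in cells with a count of Top2a. Regressed on detected genes and depth it was 0.47 in the Nkx2.5 and 0.41 in the Prox1 line. It was 0.51 in the Prox1 line without a cell filter and 0.54 without epithelial cells. With Hist1h2ap alone, added after seeing the data, it was 0.55 in the Nkx2.5 and 0.58 in the Prox1 line. With 2 plates per line, leaving out a plate returns the single-plate values given above, at 0.52 to 0.54, 0.53 to 0.56 and 0.48 to 0.51.

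The Spearman correlation with Pcna was -0.042, -0.10 and 0.017 without Hist1h2ap and 0.17, 0.22 and 0.36 for it alone. In the Nkx2.5 line it was 0.19 without a cell filter, 0.066 as Pearson's r, -0.037 after regression and 0.085 in cells with a count of Pcna, so its sign was not settled there. Nor was its sign settled in the Nkx3.2 line, with 0.016 over all cells and -0.035 after regression. In the Prox1 line it was 0.071 without epithelial cells. Leaving out a plate again returns the single-plate values, at 0.017 to 0.044, -0.04 to 0.09 and 0.11 to 0.22. Dividing cells at 100 CPM of Pcna and Top2a gave 238, 155.98 and 2667 CPM for neither, Pcna alone and both in the Nkx2.5 line, 340 CPM for neither in the Nkx3.2 line, and 431, 2520 and 1094 CPM for Pcna alone, both and Top2a alone in the Prox1 line.

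Among genes at 10 CPM or more, members higher and lower were 3 and 0 (Nkx3.2 against Nkx2.5), 7 and 0 (Prox1 against Nkx2.5), and 7 and 1 (Prox1 against Nkx3.2). The share of all genes at this setting was not computed, so these counts have no background beside them. At a fold of 1.5 the Prox1 line had 21 higher and 4 lower against the Nkx2.5 line, and 17 higher and 6 lower against the Nkx3.2 line. The Nkx3.2 line had 15 higher and 3 lower against the Nkx2.5 line. Here too no share of all genes was computed. Without the cell with most counts, 6 members were higher and 0 lower in the Nkx3.2 than in the Nkx2.5 line. Without the cells with most counts, chosen after seeing the data, 11 members instead of 9 were highest above both medians and 1 instead of 2 above that of Top2a alone, and Hist1h2bc of the Hist1h2ap-rich Prox1 cells with Top2a was at 20.99 instead of 71.2 CPM, below the cells with less Hist1h2ap. The cause of these moves was not tested. The 12 highest members per kb were the same with the shortest transcript as length.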
